A study of Mus musculus with 12 samples.

Results

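Serine, glycine and threonine metabolism was followed through 9 listed enzyme genes in a mouse NOTCH1 leukemia and in the colonies and induced pluripotent stem (iPS) cells made from it. The 9 genes were Tdh, Gcat, Gldc, Phgdh, Psat1, Psph, Shmt1, Shmt2 and Mthfd2, and 7 of them had a probe set that the platform annotation pairs with that gene alone, out of 22180 genes tested. Gcat has 2 probe sets that are each shared with another gene, and no probe set was paired with Tdh, so neither was analysed here. RNA was measured on 12 Affymetrix arrays, 3 in each of 4 groups: leukemia cells from spleen, GFP-positive colonies that the labels call partially reprogrammed, GFP-negative colonies that they call reprogrammed, and established iPS cells. All 4 groups carry the mouse genotype R26rtTA;Col1a12lox-4F2A, in which a doxycycline-controlled activator switches on the pluripotency-inducing transgenes of the 4F2A cassette. The labels give no animal age, no drug dose or time and no account of what GFP marks. All 3 leukemia titles bear one leukemia number, and replicates are titled biological but not tied to different mice or cultures. The p-values thus cover array-to-array spread, which may be technical.

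Serine is made from a glycolytic intermediate by Phgdh, Psat1 and Psph in turn. The hydroxymethyltransferases Shmt1, in the cytosol, and Shmt2, in mitochondria, split serine into glycine and a one-carbon unit carried on folate, which Mthfd2 oxidises in mitochondria for use in purine and thymidylate synthesis. Gldc is the decarboxylase of the glycine cleavage system, which takes a one-carbon unit from glycine itself, and Tdh with Gcat breaks threonine down to glycine and acetyl-CoA, a route that mouse embryonic stem cells are known to depend on. Proliferating T cells and leukemias are also known users of serine and one-carbon units.

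Values are log2 levels of RMA-normalised probe sets, so 1 unit is a doubling, and levels are compared between groups for a gene but not between genes. A gene is said to rise or fall, or to be called, where its Benjamini-Hochberg adjusted p over all 22180 genes was under 0.05 in limma. Differences are log2 ± standard error of that fit and group levels are means ± SD (n = 3 arrays). The tissue labels were checked first: Cd3e, a T cell receptor complex chain, measured 11.83 to 11.92 on the leukemia arrays and 6.43 to 6.85 on the iPS arrays, and Nanog, a core pluripotency factor, 4.32 to 4.99 and 12.21 to 12.39. Leukemia and iPS arrays were tight (median SD over genes 0.105 and 0.0998) and colony arrays more spread (0.217 and 0.245). In the colonies 2 arrays stood apart, replicate 3 of the GFP-positive and replicate 1 of the GFP-negative group, with pluripotency marker averages of 6.97 and 6.40 against 8.25 to 9.70 on the other 4 colony arrays. Results without them are given where a call of the 7 genes changed, and for some pathway genes. Without them each colony group has 2 arrays. They were picked from these data and are the lowest of their groups for all 7 measured genes. Leaving them out therefore raises the colony means of those genes by construction, and the p-values without them do not allow for that choice. In bulk RNA a smaller share of cells that express a gene and less of its RNA per cell cannot be told apart.

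The 250 bases upstream of the RefSeq start are shown for the 3 genes whose leukemia arrays lay to one side of all 9 other arrays, Gldc below them and Phgdh and Shmt2 above them. How many of all genes separate their arrays in this way, or in the other ways described below, was not counted. The separation serves here only to choose the sequences. Each is read 5′ to 3′ on the gene's own strand (GRCm38.p6, minus strand for all 3, at chr19:30175442-30175691, chr3:98339970-98340219 and chr10:127522445-127522694). Capitals mark the CCAAT box, in either orientation, of which Shmt2 has none here.
Gldc: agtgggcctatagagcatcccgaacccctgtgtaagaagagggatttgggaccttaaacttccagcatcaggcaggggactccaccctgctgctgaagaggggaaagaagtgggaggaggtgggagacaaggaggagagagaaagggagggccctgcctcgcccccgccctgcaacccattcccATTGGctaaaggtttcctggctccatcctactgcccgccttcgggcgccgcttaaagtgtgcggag
Phgdh: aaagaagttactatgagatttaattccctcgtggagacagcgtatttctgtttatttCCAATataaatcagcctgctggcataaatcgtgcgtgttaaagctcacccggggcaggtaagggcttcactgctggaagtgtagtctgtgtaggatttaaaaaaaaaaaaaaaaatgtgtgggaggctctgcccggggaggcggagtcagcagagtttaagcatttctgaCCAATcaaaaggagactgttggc
Shmt2: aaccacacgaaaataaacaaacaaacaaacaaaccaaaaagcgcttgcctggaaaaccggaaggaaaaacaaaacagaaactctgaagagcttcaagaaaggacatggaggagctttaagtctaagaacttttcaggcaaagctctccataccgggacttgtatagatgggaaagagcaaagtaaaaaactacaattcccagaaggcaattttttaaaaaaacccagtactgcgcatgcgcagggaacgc

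CCAAT, the element bound by NF-Y, was searched after the sequences had been seen. It occurred on 1 strand or the other in this window in 6 of the 7 measured genes, all but Shmt2, and in 33.8% of 32851 RefSeq promoter windows of the same length. A gene was counted if any of its windows held a match, whereas the share is of windows. Psat1 has another window, which held no match. Gldc held a single copy, beginning 66 bases before the start, and Phgdh held copies 193 and 23 bases before it. The other motifs searched, on both strands, were found in 0 of the 7 genes: the E-box CACGTG bound by Myc (6.02% of all windows), the ATF4 composite element TGATGNAA (3.45%) and the POU octamer ATGCAAAT (1.6%). With CCAAT the only motif found, no matches overlapped. These counts describe the letters of the windows only.

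Gldc showed the largest difference of the set. It measured 5.18, 5.09 and 5.43 on the leukemia arrays and 9.40, 9.61 and 9.34 on the iPS arrays, groups that lie far apart. The leukemia levels lay below the array medians of 5.76 to 5.82, and their distance from background was not tested. The iPS level was 18.5-fold higher (4.21 ± 0.84, adjusted p = 0.00416, limma), and only 0.744% of all genes differed at least as much between these groups. This call was kept in all 11 alternatives tried, including each leukemia and iPS array left out in turn, with differences of 4.13 to 4.31. Colony arrays, whose spread enters the standard error, were left out here only all together, in the fit of these groups alone. The mean of all probe sets, 1 of the 11, cannot change the Gldc levels, as the gene has 1 probe set. On GFP-positive replicates 1, 2 and 3 Gldc measured 8.50, 9.65 and 5.88, and on the GFP-negative arrays 7.04, 9.13 and 9.44. All 6 colony arrays were therefore above all 3 leukemia arrays, replicate 3 of the GFP-positive group only just, while 1 colony array exceeded the highest iPS array.

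Gldc rose in both colony groups against leukemia, by 2.77 ± 0.84 in GFP-positive (6.84-fold, adjusted p = 0.0385, limma) and by 3.30 ± 0.84 in GFP-negative colonies (9.84-fold, adjusted p = 0.0179). Without the 2 arrays that stood apart, which held the lowest Gldc level of each colony group, the differences were 3.84 ± 0.28 and 4.05 ± 0.28 (adjusted p = 4.57e-06 and 2.98e-06). The GFP-positive call was lost without GFP-positive replicate 1 (2.53, adjusted p = 0.116) or 2 (1.95, adjusted p = 0.116), without leukemia replicate 1 (2.75, adjusted p = 0.101), 2 (2.70, adjusted p = 0.107) or 3 (2.87, adjusted p = 0.0876), in the fit of these 6 arrays alone (adjusted p = 0.0673) and with the replicate number as a block (adjusted p = 0.0514). The GFP-negative call was lost without GFP-negative replicate 2 (adjusted p = 0.0628) or 3 (2.85, adjusted p = 0.0558) and without leukemia replicate 1 (3.27, adjusted p = 0.0565) or 2 (3.23, adjusted p = 0.0603). Between iPS cells and colonies Gldc was not called, at 1.44 ± 0.84 over GFP-positive (95% interval -0.43 to 3.30) and 0.91 ± 0.84 over GFP-negative colonies (-0.95 to 2.78). In order of group mean Gldc ran from leukemia (5.24 ± 0.17) through GFP-positive (8.01 ± 1.93) and GFP-negative colonies (8.54 ± 1.31) to iPS cells (9.45 ± 0.14), and only the step from leukemia was called.

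**Figure D1:**
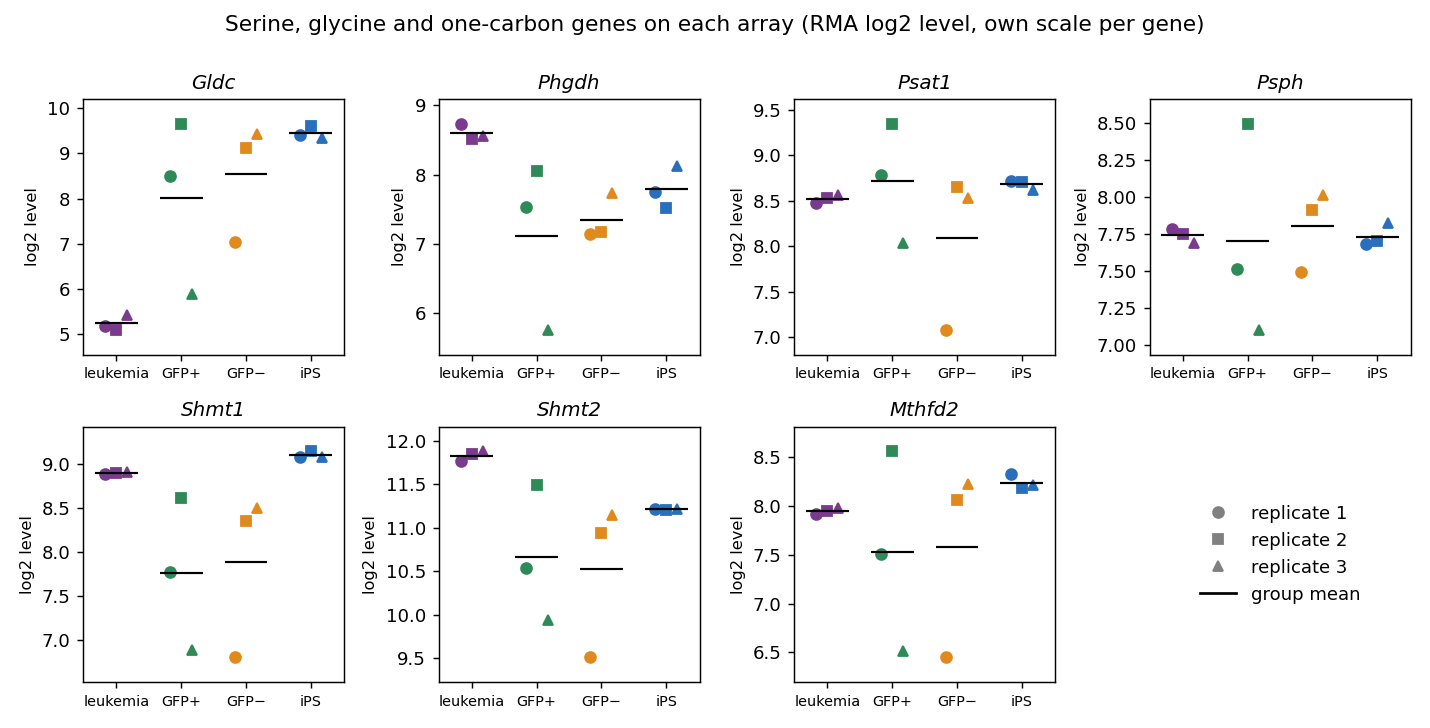
Log2 level (y axis, own scale per panel) of the 7 measured genes on each of the 12 arrays, by group (x axis). Symbols mark replicates 1 to 3 and black lines the group means. Leukemia and iPS arrays lie close together within their groups, whereas in all 7 panels GFP-positive replicate 3 and GFP-negative replicate 1 are the lowest of their groups.

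Phgdh, which catalyses the committed step of serine synthesis, ran the other way. Leukemia arrays measured 8.73, 8.51 and 8.56, GFP-positive colonies 7.53, 8.05 and 5.76, GFP-negative colonies 7.15, 7.17 and 7.74, and iPS cells 7.75, 7.52 and 8.13. No array of any other group reached the lowest leukemia array. The gene fell in GFP-positive colonies by 1.49 on the log2 scale (-1.49 ± 0.47, 2.8-fold, adjusted p = 0.0442, limma), and GFP-positive replicate 3 was the lowest array of all. In GFP-negative colonies the difference was -1.25 ± 0.47 (adjusted p = 0.0864) and in iPS cells -0.80 ± 0.47 (adjusted p = 0.264), neither of them called. The fits of the 2 groups alone, which leave the spread of the other groups out, called both of these (adjusted p = 0.00862 and 0.00196) but not the GFP-positive difference (adjusted p = 0.106). That GFP-positive call was also lost after cyclic loess (adjusted p = 0.0631), with the replicate block (adjusted p = 0.0734), without GFP-positive replicate 1 (-1.70, adjusted p = 0.0565) and without leukemia replicate 1 (-1.42, adjusted p = 0.123), 2 (-1.53, adjusted p = 0.0999) or 3 (-1.51, adjusted p = 0.105). Without the 2 arrays that stood apart both colony differences were called, at -0.81 ± 0.23 (adjusted p = 0.0207) in GFP-positive and -1.15 ± 0.23 (adjusted p = 0.00329) in GFP-negative colonies.

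The other enzymes of serine synthesis were not called on all 12 arrays. Psat1, the aminotransferase of the pathway, measured 8.47, 8.53 and 8.56 in leukemia and 8.71, 8.70 and 8.62 in iPS cells, with a difference of 0.15 ± 0.40 (95% interval -0.73 to 1.03, adjusted p = 0.84). GFP-positive colonies spread around both, at 8.78, 9.34 and 8.04, and GFP-negative colonies gave 7.08, 8.65 and 8.53, with replicate 1 far below every other array. Without the 2 arrays that stood apart it was higher in GFP-positive colonies than in leukemia (0.54 ± 0.15, adjusted p = 0.0197).

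Psph, the phosphatase that releases serine, measured 7.78, 7.75 and 7.69 in leukemia and 7.68, 7.70 and 7.82 in iPS cells. Its groups overlapped in all 6 comparisons. The iPS and leukemia means differed by -0.01 ± 0.29 (adjusted p = 0.989), with a 95% interval of -0.64 to 0.62. Colony arrays reached from 7.10 on GFP-positive replicate 3 to 8.49 on replicate 2 of the same group.

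Shmt2, the mitochondrial serine hydroxymethyltransferase, had its highest levels in leukemia, at 11.77, 11.85 and 11.88. The iPS arrays measured 11.22, 11.21 and 11.22, the GFP-positive colonies 10.54, 11.49 and 9.94 and the GFP-negative colonies 9.51, 10.94 and 11.15. None of the 9 reprogramming arrays overlapped the leukemia range. The differences from leukemia were -1.18 ± 0.43 in GFP-positive colonies (adjusted p = 0.0785), -1.30 ± 0.43 in GFP-negative colonies (adjusted p = 0.0565) and -0.62 ± 0.43 in iPS cells (adjusted p = 0.362), and none was called by limma with the spread shared over 4 groups. The iPS difference was called in the fit of leukemia and iPS arrays alone (-0.62 ± 0.07, 1.53-fold, adjusted p = 0.000106). Without the arrays that stood apart Shmt2 fell in GFP-positive (-0.82 ± 0.22, adjusted p = 0.017) and GFP-negative colonies (-0.79 ± 0.22, adjusted p = 0.0206). The GFP-positive difference was also called without GFP-positive replicate 2 (-1.59, adjusted p = 0.0206), and the GFP-negative difference without GFP-negative replicate 3 (-1.61, adjusted p = 0.0304), after cyclic loess (adjusted p = 0.0332) and over the brighter genes only (adjusted p = 0.0401).

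Its cytosolic counterpart Shmt1 was lower in colonies than at either end. Leukemia arrays gave 8.88, 8.90 and 8.91 and iPS arrays 9.08, 9.14 and 9.07, whereas GFP-positive colonies measured 7.77, 8.61 and 6.89 and GFP-negative colonies 6.81, 8.35 and 8.50. All 6 colony arrays were below all 6 arrays of the end states. Against leukemia the differences were -1.14 ± 0.46 in GFP-positive (adjusted p = 0.108, limma) and -1.01 ± 0.46 in GFP-negative colonies (adjusted p = 0.157), neither called. The GFP-negative one was not called without the arrays that stood apart either (-0.47 ± 0.20, adjusted p = 0.0993). Against iPS cells the gap was 1.34 ± 0.46 for GFP-positive (2.53-fold, adjusted p = 0.09) and 1.21 ± 0.46 for GFP-negative colonies (2.31-fold, adjusted p = 0.179), not called by limma. Without the arrays that stood apart the first of these was called (0.91 ± 0.20, adjusted p = 0.0111), as was the difference of GFP-positive colonies from leukemia (-0.71 ± 0.20, adjusted p = 0.0203), and both were called without GFP-positive replicate 2 (1.76, adjusted p = 0.029, and -1.56, adjusted p = 0.0326). The difference of iPS cells over leukemia was 0.20 ± 0.46 and was called only in the fit of those 6 arrays (0.20 ± 0.07, adjusted p = 0.0402), against a fall of Shmt2 in the same fit.

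Mthfd2 measured 7.92, 7.95 and 7.98 in leukemia and 8.33, 8.18 and 8.21 in iPS cells, a difference of 0.29 ± 0.51 (adjusted p = 0.758) that was called in the fit of these 6 arrays alone (0.29 ± 0.07, adjusted p = 0.0121). Colonies spanned both sides, from 6.45 on GFP-negative replicate 1 and 6.51 on GFP-positive replicate 3 to 8.56 on GFP-positive replicate 2. Their means, 7.53 ± 1.02 and 7.58 ± 0.98, lay below both end states without being called. Without the arrays that stood apart they exceeded leukemia by 0.08 ± 0.24 and 0.20 ± 0.24 (adjusted p = 0.838 and 0.589).

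**Figure D2:**
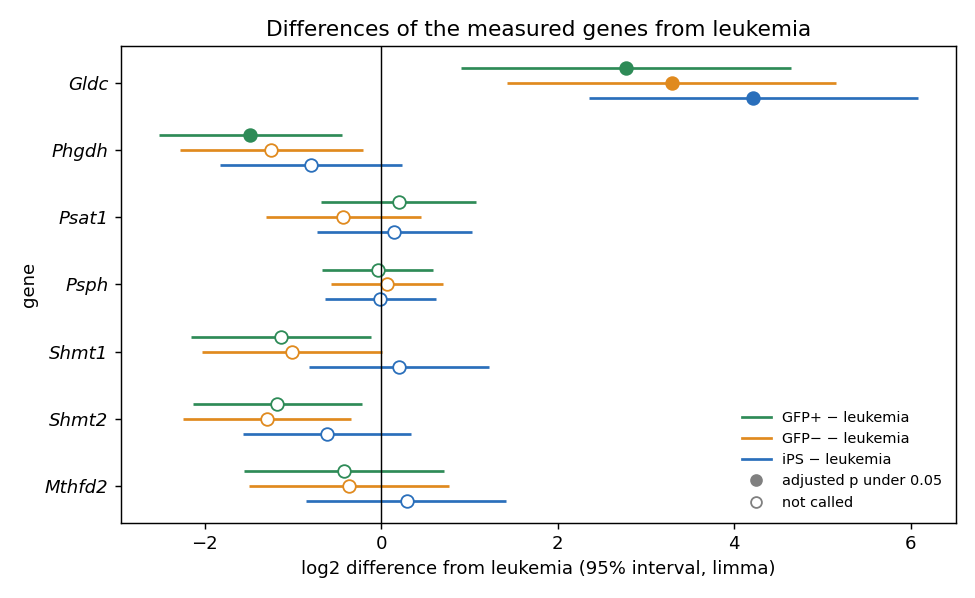
Log2 difference from leukemia (x axis) of the 7 measured genes (y axis) in the colony groups and in iPS cells, with 95% intervals of the limma fit of all arrays. Filled points passed an adjusted p of 0.05. Gldc is filled in all 3 comparisons, from 2.77 to 4.21, and Phgdh only in GFP-positive colonies, at -1.49.

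Counted over the set, 1 of the 7 genes rose and 1 fell in GFP-positive colonies against leukemia, where 9.6% of all genes rose and 12.3% fell. There 4 of the 7 had an unadjusted p under 0.05, beside 7427 of all 22180 genes. In GFP-negative colonies 1 rose and 0 fell, against 9.02% and 12% of all genes, with 3 of the 7 at an unadjusted p under 0.05 (7272 of all 22180). In iPS cells 1 rose and 0 fell, against 12.4% and 11.9%, with 1 of the 7 at an unadjusted p under 0.05 (7697 of all 22180). The called shares of the 7 genes are near those of all genes. Genes that rose made up 43.9% and 43% of all calls in GFP-positive and GFP-negative colonies, and 57.1% and 53.4% after cyclic loess. For iPS cells against GFP-positive colonies the share was 59.2%, and 48.3% after cyclic loess. Median differences of the 7 were -0.42, -0.43 and 0.15, beside -0.04, -0.01 and -0.03 for all genes, and the 3 comparisons share the leukemia arrays. The fit of the 6 arrays of iPS cells and leukemia alone called 3 of the 7 higher (Gldc, Shmt1 and Mthfd2) and 2 lower (Phgdh and Shmt2), where it called 24.5% of all genes higher and 22.9% lower. Without the 2 arrays that stood apart, 2 of the 7 rose and 3 fell from leukemia to GFP-positive colonies, beside 15.7% and 16.9% of all genes.

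Limma called 0 of the 7 genes between iPS cells and GFP-positive colonies, where 6.15% of all genes were higher in iPS cells and 4.23% lower, and 0 between iPS cells and GFP-negative colonies, where the shares were 2.94% and 1.32%. In each of these Shmt1 was the 1 gene of the 7 with an unadjusted p under 0.05, beside 6028 and 4371 of all 22180 genes. Of the 7 genes 6 had higher means in iPS cells in each comparison, all but Psat1 in the first and all but Psph in the second. Median differences of the 7 were 0.69 and 0.65, beside 0.01 and -0.02 for all genes. The arrays that stood apart, lowest of their groups for all 7, lower the colony means behind this count. Without them the difference from GFP-positive colonies was -0.27 ± 0.22 for Psph and 0.01 ± 0.23 for Phgdh. Between the colony groups 0 of the 7 were called, 0 had an unadjusted p under 0.05, and 0% of all genes were called in either direction by limma (1413 genes at an unadjusted p under 0.05). The widest difference there was that of Psat1, lower in GFP-negative colonies by 0.63 ± 0.40 (-0.63, 95% interval -1.51 to 0.25).

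Within the colony groups the 7 genes ranked the arrays alike but for Psat1, and the orders counted here are those that the 7 genes showed. GFP-positive replicate 3 was the lowest and replicate 2 the highest of its group for all 7, and GFP-negative replicate 1 was the lowest of its group for all 7. GFP-negative replicate 3 was the highest of its group for 6 of the 7, all but Psat1, and for 37.6% of all genes. Over all genes 18.9% had GFP-positive replicate 3 and GFP-negative replicate 1 both lowest, and 14.7% had GFP-positive replicate 2 highest as well. Of 60 pathway genes 23 and 21 had these orders. The spread within a group was largest for Gldc, 13.7-fold among GFP-positive colonies, and amounted to 4.88-fold for Phgdh and 4.13-fold for Mthfd2 there. Among iPS arrays it was at most 1.53-fold, for Phgdh, and among leukemia arrays at most 1.26-fold, for Gldc. The average over the 7 genes, each taken relative to its iPS mean, was -0.58, 0.28 and -1.73 on GFP-positive replicates 1, 2 and 3 and -1.52, -0.28 and -0.09 on the GFP-negative replicates.

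Marker lists were read on the same arrays. The 12 pluripotency genes averaged 8.25, 9.48 and 6.97 on the GFP-positive and 6.40, 9.43 and 9.70 on the GFP-negative arrays, and 9.48 to 9.52 on iPS arrays. Cell division genes (10 of 11 measured) averaged 9.83, 10.40 and 9.76 and then 9.35, 10.46 and 10.58 on the colonies, 10.72 to 10.75 in leukemia and 10.69 to 10.71 in iPS cells. Macrophage and granulocyte genes (12 of 12 measured) averaged 7.71 on GFP-positive replicate 3 against 5.59 to 6.77 on the other colony arrays, and epithelial genes (9 of 10) 11.57 on GFP-negative replicate 1 against 7.88 and 9.68 on the others of its group, 10.98 to 11.36 on the GFP-positive arrays, 8.31 to 8.37 in iPS cells and 5.36 to 5.47 in leukemia. The macrophage and granulocyte list stood at 8.40 to 8.42 in leukemia, above every colony array, and at 5.78 to 5.99 in iPS cells. T lineage genes (9 of 12) averaged 5.44 to 6.71 on colony arrays, 10.59 to 10.63 in leukemia and 5.64 to 6.09 in iPS cells. Cd3e alone measured 8.50, 8.26 and 9.57 on the GFP-positive and 9.83, 6.13 and 6.04 on the GFP-negative arrays. It was thus highest of each group on the array that stood apart. Nanog measured 9.56, 11.93 and 7.97 and then 5.07, 11.35 and 11.85. Fibroblast genes (11 of 11) averaged 6.35 to 7.24 on colony arrays, 5.87 to 5.93 in leukemia and 8.08 to 8.18 in iPS cells. The part of these cell types in the levels of the 7 genes was not tested.

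**Figure D3:**
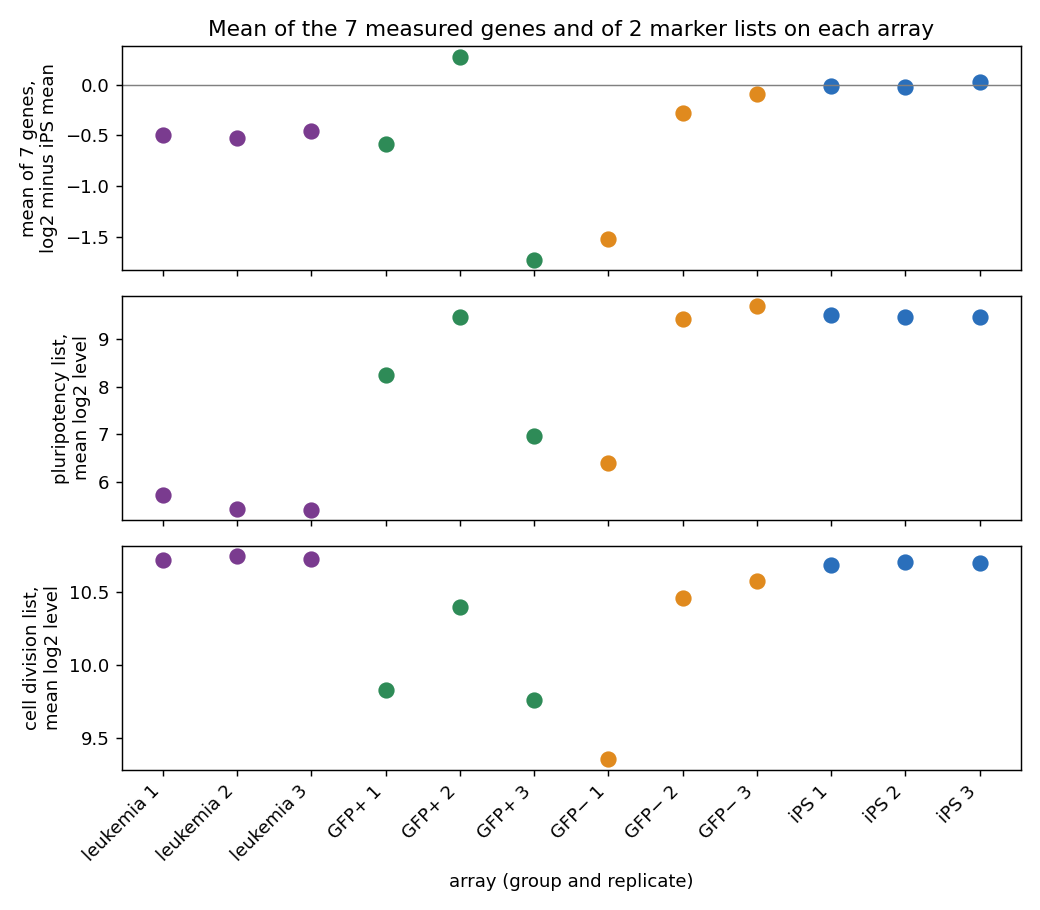
Top, the mean over the 7 measured genes on each array, each gene taken relative to its iPS mean (log2); middle and bottom, the mean log2 level of the pluripotency and cell division lists. Each point is 1 of the 12 arrays (x axis). GFP-positive replicate 3 and GFP-negative replicate 1 are lowest in the top panel, at -1.73 and -1.52, and the lowest of their groups in the other panels.

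The other subunits of the glycine cleavage system were examined beside Gldc. Amt, its aminomethyltransferase, measured 6.11, 6.16 and 5.90 in leukemia and 9.54, 9.49 and 9.43 in iPS cells. It rose 10.8-fold (3.43 ± 0.73, adjusted p = 0.00613, limma), a call kept in all 11 alternatives. On the colony arrays Amt gave 7.49, 8.85 and 6.18 in the GFP-positive and 6.10, 8.67 and 8.86 in the GFP-negative group, so the 2 arrays that stood apart lay at the leukemia level and the other 4 between leukemia and iPS cells. Neither colony difference from leukemia was called (1.45 ± 0.73, adjusted p = 0.2, and 1.82 ± 0.73, adjusted p = 0.111). Without the 2 arrays that stood apart both were, at 2.11 ± 0.31 in GFP-positive (adjusted p = 0.000474) and 2.71 ± 0.31 in GFP-negative colonies (adjusted p = 9.31e-05). Amt was then also called higher in iPS cells than in GFP-positive colonies (1.32 ± 0.31, adjusted p = 0.0148, limma).

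The remaining subunits, named after their values were seen, moved less. Gcsh, the lipoyl carrier protein, rose by 0.48 ± 0.11 in iPS cells (adjusted p = 0.0093), and in GFP-negative colonies was called only without the arrays that stood apart (0.39 ± 0.11, adjusted p = 0.0162). Dld, the dihydrolipoyl dehydrogenase that other mitochondrial complexes also use, fell in GFP-positive (-0.57 ± 0.11, adjusted p = 0.00363) and GFP-negative colonies (-0.52 ± 0.11, adjusted p = 0.00578). Its difference in iPS cells (-0.34 ± 0.11, adjusted p = 0.0449) lost the call without any 1 of the 6 arrays (highest adjusted p = 0.153), after cyclic loess and with the replicate block (highest adjusted p = 0.104). Of the 7 measured genes of threonine and glycine breakdown outside the main set, 2 rose and 3 fell in iPS cells, beside 12.4% and 11.9% of all genes. In each colony group 0 rose and 3 fell, beside 9.6% and 12.3% of all genes for GFP-positive and 9.02% and 12% for GFP-negative colonies. The creatine synthesis enzyme gene Gatm fell furthest of the list in all 3 groups (-1.23 ± 0.25 in iPS cells, adjusted p = 0.00425). Its means there, 4.93 to 5.13, lay below the array medians of 5.76 to 5.82. Tha1, a threonine aldolase gene, fell in GFP-positive (-0.61 ± 0.15, adjusted p = 0.0148) and GFP-negative colonies (-0.55 ± 0.15, adjusted p = 0.0253). Its fall in iPS cells (-0.51 ± 0.15, adjusted p = 0.0303) lost the call without any 1 array but iPS replicate 2 (highest adjusted p = 0.117). That call was also lost after cyclic loess and with the replicate block (highest adjusted p = 0.0559). The GFP-positive call of Tha1 was lost without leukemia replicate 1 (adjusted p = 0.0604), and the GFP-negative call without GFP-negative replicate 2, leukemia replicate 1 or leukemia replicate 2 (highest adjusted p = 0.0917) and after cyclic loess (adjusted p = 0.0622). Sds and Sdsl, which encode serine dehydratases, had no probe set paired with them alone and were not analysed here.

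**Figure D4:**
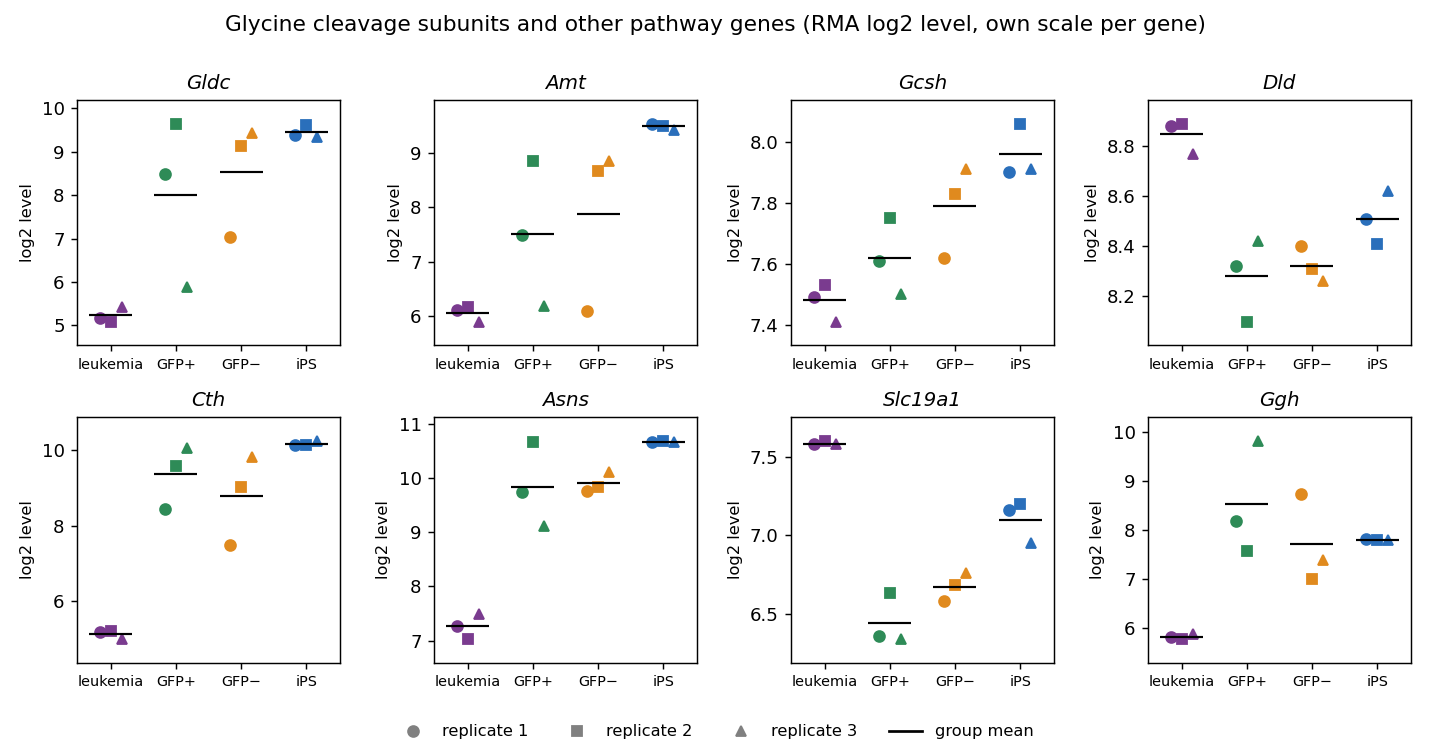
Log2 level (y axis, own scale per panel) of the glycine cleavage genes Gldc, Amt, Gcsh and Dld and of Cth, Asns, Slc19a1 and Ggh on each of the 12 arrays, by group (x axis); symbols mark replicates and black lines group means. Amt lies at 6.10 and 6.18 on GFP-negative replicate 1 and GFP-positive replicate 3, within or next to the leukemia range, whereas Cth and Asns on every colony array lie above leukemia.

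Among the 10 genes of serine use and mitochondrial transport, 5 rose and 1 fell in iPS cells against leukemia, 3 and 1 in GFP-positive and 2 and 1 in GFP-negative colonies. The shares of all genes were 12.4% and 11.9%, 9.6% and 12.3%, and 9.02% and 12%. Cth, the cystathionine lyase that makes cysteine from serine-derived cystathionine, had the largest difference of any pathway gene listed. It measured 5.17, 5.19 and 4.99 in leukemia, 8.45, 9.59 and 10.07 in GFP-positive colonies, 7.49, 9.04 and 9.82 in GFP-negative colonies and 10.14, 10.14 and 10.25 in iPS cells. Its leukemia levels lay below the array medians of 5.76 to 5.82, and their distance from background was not tested. The rises were 4.25 ± 0.53 (adjusted p = 0.000239), 3.66 ± 0.53 (adjusted p = 0.000631) and 5.06 ± 0.53 (33.2-fold, adjusted p = 6.08e-05, limma). Each was kept whichever array of the 2 groups compared was left out. The GFP-negative rise was 4.31 ± 0.30 without the arrays that stood apart. Cth was then also called higher in iPS cells than in GFP-positive colonies (1.15 ± 0.30, adjusted p = 0.0256, limma). Unlike Gldc, Cth was highest of its group on GFP-positive replicate 3. Cbs, the synthase before Cth in that route, rose by 0.99 ± 0.27 in iPS cells (adjusted p = 0.0231), a call lost without any 1 array but iPS replicate 2 (highest adjusted p = 0.0899). Cbs also rose in GFP-positive (0.63 ± 0.13, adjusted p = 0.00456) and GFP-negative colonies (1.13 ± 0.13, adjusted p = 0.000116) once the arrays that stood apart were left out. Sptlc2, a subunit of the serine palmitoyltransferase that starts sphingolipid synthesis, rose in GFP-positive (1.0 ± 0.15, adjusted p = 0.000858) and GFP-negative colonies (0.82 ± 0.15, adjusted p = 0.00301). In iPS cells it rose by 0.58 ± 0.15 (adjusted p = 0.0163), a call lost without iPS replicate 1 or 3 or leukemia replicate 1 or 2 (highest adjusted p = 0.0633).

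Of 17 measured folate genes outside the set, 2 rose and 4 fell in GFP-positive colonies, 2 and 2 in GFP-negative colonies, and 2 and 1 in iPS cells. Those counts lie beside 9.6% and 12.3%, 9.02% and 12%, and 12.4% and 11.9% of all genes. Ggh, a lysosomal hydrolase that shortens folate chains, rose in GFP-positive colonies by 2.71 ± 0.53 (adjusted p = 0.00443; 2.06 ± 0.18 without the arrays that stood apart) and in iPS cells by 1.98 ± 0.53 (adjusted p = 0.0204), the second call being lost without any 1 of the 6 arrays (highest adjusted p = 0.0621). In GFP-negative colonies the call of its rise of 1.89 ± 0.53 (adjusted p = 0.0288) was lost without GFP-negative replicate 1 or any 1 leukemia array (highest adjusted p = 0.0832). That rise was 1.38 ± 0.18 without the arrays that stood apart. Mtrr, which reactivates methionine synthase, rose in GFP-negative colonies (1.05 ± 0.24, adjusted p = 0.0106) and iPS cells (1.25 ± 0.24, adjusted p = 0.00352). Its rise in GFP-positive colonies (0.77 ± 0.24, adjusted p = 0.0436) lost the call without any 1 array but GFP-positive replicate 3 (highest adjusted p = 0.143). Tyms, the thymidylate synthase, fell in GFP-positive colonies (-1.21 ± 0.31, adjusted p = 0.0169), a call lost without any 1 array but GFP-positive replicate 2 (highest adjusted p = 0.0543). In GFP-negative colonies Tyms was called only without the arrays that stood apart (-0.47 ± 0.16, adjusted p = 0.0426). Mthfd2l, a mitochondrial relative of Mthfd2, was lower in iPS cells than in GFP-positive colonies by 1.02 (-1.02 ± 0.26, adjusted p = 0.0337), a call lost without any 1 array but GFP-positive replicate 2 (highest adjusted p = 0.125) and with the replicate block (adjusted p = 0.0525). Slc19a1, the reduced folate carrier, fell from leukemia in GFP-positive colonies (-1.14 ± 0.11, adjusted p = 4.58e-05), GFP-negative colonies (-0.91 ± 0.11, adjusted p = 0.000227) and iPS cells (-0.48 ± 0.11, adjusted p = 0.00955), each kept in every alternative. It was higher in iPS cells than in GFP-positive colonies by 0.66 ± 0.11 (adjusted p = 0.00802).

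The S-adenosylmethionine list had 0 of 8 measured genes called in either colony group against leukemia by limma. All genes gave 9.6% higher and 12.3% lower for GFP-positive and 9.02% and 12% for GFP-negative colonies. At an unadjusted p under 0.05 were 2 and 1 of the 8, beside 7427 and 7272 of all 22180 genes. In iPS cells 2 of the 8 fell, where 11.9% of all genes fell. Those were Ahcyl1 (-0.56 ± 0.15, adjusted p = 0.0225) and Ahcyl2 (-0.48 ± 0.15, adjusted p = 0.0381), relatives of S-adenosylhomocysteine hydrolase. The Ahcyl1 call was lost without any 1 of the 6 arrays (highest adjusted p = 0.0709), and that of Ahcyl2 without any but iPS replicate 1 (highest adjusted p = 0.129), after cyclic loess and with the replicate block (highest adjusted p = 0.0786). Ahcyl1 also fell in GFP-negative colonies (-0.51 ± 0.10, adjusted p = 0.00322) once the arrays that stood apart were left out.

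ATF4 is the transcription factor of the amino acid stress response and is known to drive Phgdh, Psat1, Shmt2 and Mthfd2. Of 18 measured ATF4 targets and regulators outside the set, 6 rose and 2 fell in GFP-positive colonies, 4 and 2 in GFP-negative colonies and 3 and 2 in iPS cells. All genes gave 9.6% and 12.3%, 9.02% and 12%, and 12.4% and 11.9%. Asns, the asparagine synthetase, measured 7.27, 7.03 and 7.49 in leukemia, 9.74, 10.66 and 9.11 in GFP-positive colonies, 9.75, 9.83 and 10.11 in GFP-negative colonies and 10.66, 10.68 and 10.67 in iPS cells. It rose in all 3 groups, by 2.57 ± 0.31 (adjusted p = 0.000193), 2.63 ± 0.31 (adjusted p = 0.000164) and 3.41 ± 0.31 (adjusted p = 2.24e-05), and each call was kept in all alternatives. Nupr1, a stress-induced chromatin protein gene, rose in GFP-positive (3.91 ± 0.51, adjusted p = 0.000335) and GFP-negative colonies (2.27 ± 0.51, adjusted p = 0.00911). The GFP-negative call was lost in the fit of those 2 groups (adjusted p = 0.0648), and the GFP-negative rise was 1.55 ± 0.26 without the arrays that stood apart. Nupr1 was lower in iPS cells than in GFP-positive colonies (-3.50 ± 0.51, adjusted p = 0.00425). Without the arrays that stood apart it was also lower in iPS cells than in GFP-negative colonies (-1.14 ± 0.26, adjusted p = 0.0229) and lower in GFP-negative than in GFP-positive colonies (-2.21 ± 0.28, adjusted p = 0.00319). Sesn2, a leucine sensor gene, rose in GFP-positive (1.87 ± 0.40, adjusted p = 0.00706) and GFP-negative colonies (2.32 ± 0.40, adjusted p = 0.00204). Eif4ebp1, a translation repressor gene, and Sesn2 each rose by 2.40 in iPS cells (± 0.29 and ± 0.40, adjusted p = 0.000183 and 0.00141). Eif4ebp1 also rose in GFP-positive (1.89 ± 0.29, adjusted p = 0.00106) and GFP-negative colonies (2.06 ± 0.29, adjusted p = 0.000611). Ddit3, which encodes the stress factor CHOP, fell from leukemia by 1.70 in iPS cells (-1.70 ± 0.16, adjusted p = 2.77e-05) and by 0.68 in GFP-negative colonies (-0.68 ± 0.16, adjusted p = 0.0115). It was lower in iPS cells than in GFP-positive (-1.19 ± 0.16, adjusted p = 0.00307) and GFP-negative colonies (-1.02 ± 0.16, adjusted p = 0.00781). Its fall in GFP-positive colonies (-0.52 ± 0.16, adjusted p = 0.0409) lost the call without any 1 array but GFP-positive replicate 1 and in 4 other alternatives (highest adjusted p = 0.121).

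Over all 5 pathway lists, 60 of 67 genes were measured. In GFP-positive colonies 11 rose and 10 fell, in GFP-negative colonies 8 and 8, and in iPS cells 12 and 9. The shares of all genes were 9.6% and 12.3%, 9.02% and 12%, and 12.4% and 11.9%. Pathway medians were -0.06, -0.01 and -0.04, beside -0.04, -0.01 and -0.03 for all genes. Between iPS cells and GFP-positive colonies 4 were higher and 3 lower in iPS cells, beside 6.15% and 4.23% of all genes. Among those higher were the mitochondrial serine transporter gene Sfxn1 (0.62 ± 0.13, adjusted p = 0.0203) and Mat2b (0.81 ± 0.22, adjusted p = 0.0441). Both calls were lost without any 1 array but GFP-positive replicate 2 (highest adjusted p = 0.0758 and 0.128), and that of Mat2b also after cyclic loess and with the replicate block (highest adjusted p = 0.065). Between iPS cells and GFP-negative colonies 1 was higher, Sptlc1 (0.55 ± 0.11, adjusted p = 0.0215), and 2 lower, Ddit3 and the serine racemase gene Srr (-0.68 ± 0.13, adjusted p = 0.0204). All genes gave 2.94% and 1.32% there. The Sptlc1 and Srr calls were lost without any 1 iPS array and in the fit of the 2 groups (adjusted p = 0.125 and 0.0718). Between the colony groups limma called 0 of 60, with 1 at an unadjusted p under 0.05, beside 0% of all genes called and 1413 of 22180 at an unadjusted p under 0.05. Single arrays moved several of these counts by over 1.5 times, given here with the share of all genes in the same fit. Without GFP-positive replicate 2 the 4 higher became 12 (8.99%), and without any 1 of the other 5 arrays 1 (1.83% to 3.46%). Without leukemia replicate 2 the 11 became 7 (6.76%), and without leukemia replicate 1 the 10 became 6 (8.77%). Without GFP-negative replicate 3 the 1 and 2 became 5 and 5 (4.61% and 3.3%). Without any 1 iPS array they became 0 and 1 (0.803% to 0.884% and 0.329% to 0.374%). Without GFP-negative replicate 2 the 1 became 2 (2.1%). The 9 lower in iPS cells became 3 to 5 without any 1 of the 6 arrays (8.67% to 8.94%).

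The genes with profiles most like those of Gldc and Phgdh were found by the root mean square difference between centred log2 values over the 12 arrays. For Gldc, whose own deviation from its mean was 1.84 by this measure, they were Trim6 (0.325), Zfp462 (0.362), Sall4 (0.367), a zinc-finger factor of pluripotent cells, Gtsf1l (0.385) and Spry2 (0.399), a feedback inhibitor of receptor tyrosine kinase signalling. Their means ran from 5.13 to 6.99 in leukemia and from 9.64 to 10.96 in iPS cells. Neighbours of Phgdh were less close relative to its own deviation of 0.77, namely Snord47 (0.364), Nt5dc2 (0.372), Rasl11b (0.373), Ttc3 (0.377) and Zfp81 (0.388), all with their highest mean in leukemia. As neighbours were chosen by likeness over these same arrays, the order of their group means follows from that choice.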

How the data were processed

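RNA levels came from 12 Affymetrix arrays of total RNA. Deposited values were on the log2 scale, with RMA named per the submitters' processing notes and no version or filter given in the labels. RMA includes quantile normalization, which removes a shift shared by most genes. Array medians lay between 5.76 and 5.82, and 0 pairs of arrays were identical. No detection calls were used. Precision is limited by how few arrays there are.

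Of 41345 probe sets, 23521 were paired with 1 gene symbol by the platform annotation, and the brightest per gene gave 22180 genes; each of the 7 measured members has 1 such probe set. Group means over the 12 arrays were estimated together in limma 3.58.1 (R 4.3.3), with eBayes moderation and Benjamini-Hochberg adjustment over all genes. The steps were tested on simulated data. Alternatives were cyclic loess, a filter on dim genes, the mean of a gene's probe sets, the 2 groups compared alone, a replicate block and each array of the groups compared left out. Both arrays that stand apart were also left out, except for iPS cells against leukemia. Members, lists and alternatives were chosen with earlier results of these data known. The genes named were all members, the 2 largest called differences of each pathway list, the 5 nearest profiles, and Nanog and Cd3e. Same-numbered arrays did not deviate together in every pair (correlations of -0.377 to 0.322), so replicate numbers were not taken as pairs. Promoter sequences are from RefSeq (GRCm38.p6), matched by symbol for 7 of 7 members.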

Additional observations from a re-analysis of the deposited data

How the results depend on the processing

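Gldc kept its call between iPS cells and leukemia in all 11 alternatives. Other counts of the 7 genes moved, and the cause was not tested. Against leukemia, GFP-positive colonies had 1 higher and 1 lower. Fitting the 2 groups only gave 0 and 0 (10.6% and 12.1% of all genes), the replicate block 0 and 0 (9.34% and 11.4%) and cyclic loess 0 lower (9.15%). Omitting both arrays that stand apart gave 2 and 3 (15.7% and 16.9%), and leaving out 1 array 0 to 1 and 0 to 3 (6.73% to 9.58% and 8.6% to 11.9%). GFP-negative colonies had 1 higher (0 to 1 leaving out 1 array) and 0 lower. Cyclic loess, genes above the median mean and the 2 groups only each gave 1 lower (9.83%, 19.1% and 8.73% of the genes tested). Omitting both arrays gave 2 lower (16.8%), and leaving out 1 array 0 to 1 (8.54% to 14.2%). iPS cells against leukemia had 3 higher and 2 lower with the 2 groups only (24.5% and 22.9% of all genes). Against GFP-positive colonies iPS cells had 1 higher without both arrays (11.2%) and 0 to 1 leaving out 1 (1.83% to 8.99%).

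Of 60 pathway genes, omitting both arrays gave 15 higher and 13 lower in GFP-negative colonies against leukemia (16.1% and 16.8% of all genes), 10 and 10 in iPS cells against GFP-positive (11.2% and 9.29%), 3 and 4 against GFP-negative (5.85% and 4.17%), and 4 lower in GFP-negative against GFP-positive colonies (3.5%). The 2 groups only gave 21 higher and 24 lower in iPS cells against leukemia (24.5% and 22.9% of all genes), 5 lower against GFP-positive (6.2%) and 0 and 1 against GFP-negative colonies (0.649% and 0.207%). Genes above the median mean gave 5 lower in iPS cells against GFP-positive (9.71% of all genes tested there) and 2 higher against GFP-negative colonies (4.46%). Cyclic loess gave 2 higher against GFP-positive (4.77%). Leaving out 1 array gave 7 to 12 higher and 6 to 12 lower in GFP-positive colonies against leukemia (6.73% to 9.58% and 8.6% to 11.9% of all genes). In iPS cells it gave 3 to 5 lower against leukemia (8.67% to 8.94%) and 1 to 12 higher against GFP-positive (1.83% to 8.99%). Against GFP-negative colonies it gave 0 to 5 higher and 1 to 5 lower (0.803% to 4.61% and 0.329% to 3.3%), and between colonies 0 to 2 lower (0% to 3.46%). Replicate numbers did not pair the arrays. The replicate block ended the GFP-positive calls of Gldc (adjusted p = 0.0514) and Phgdh (adjusted p = 0.0734), and no other call among the 7.

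Some differences that were not called changed sign. Without both arrays they became 0.20 for Mthfd2 and 0.0697 for Psat1 in GFP-negative colonies against leukemia, 0.0825 for Mthfd2 and 0.26 for Psph in GFP-positive against leukemia, -0.27 for Psph in iPS cells against GFP-positive, and -0.34 for Phgdh, -0.0400 for Psph and 0.0327 for Shmt2 in GFP-negative against GFP-positive. With cyclic loess Psph became 0.11 in GFP-positive against leukemia, -0.0607 in iPS cells against GFP-positive and 0.0479 against leukemia. Leaving out 1 array, GFP-negative against GFP-positive differences ran from -0.54 to 1.35 for Gldc, -0.45 to 0.62 for Mthfd2, -0.44 to 0.71 for Phgdh, -0.20 to 0.50 for Psph, -0.30 to 0.67 for Shmt1 and -0.48 to 0.39 for Shmt2. Against leukemia they ran from -0.69 to 0.20 for Mthfd2, -0.71 to 0.0697 for Psat1 and -0.0413 to 0.22 for Psph in GFP-negative, and from -0.94 to 0.0825, -0.11 to 0.54 and -0.43 to 0.26 in GFP-positive colonies. In iPS cells they ran from -0.39 to 0.26 for Psat1 and -0.27 to 0.43 for Psph against GFP-positive, and for Psph from -0.23 to 0.0324 against GFP-negative and -0.0505 to 0.0172 against leukemia.

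With 3 arrays a group and wide colony spread, differences within the intervals given could not be resolved.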

Other observations

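Mthfd1, the trifunctional folate enzyme of the cytosol, and Mthfd1l, the formyltetrahydrofolate synthetase of mitochondria, were chosen after their values were seen. Mthfd1 measured 9.92, 9.98 and 9.92 in leukemia and 10.91, 10.82 and 10.78 in iPS cells, and on colony arrays 9.43, 10.29 and 9.49 (GFP-positive) and 8.49, 10.21 and 10.48 (GFP-negative), so all iPS arrays lay above all others. Its iPS level exceeded leukemia by 0.90 ± 0.43 (adjusted p = 0.17, limma), which was not called. Without the arrays that stood apart Mthfd1 was higher in iPS cells than in GFP-positive colonies (0.98 ± 0.21, adjusted p = 0.00986). Mthfd1l measured 9.51, 9.55 and 9.61 in leukemia and 8.89, 8.84 and 8.84 in iPS cells (-0.69 ± 0.44, adjusted p = 0.305), also not called, with GFP-positive replicate 2 (9.67) above every leukemia array and GFP-negative replicate 1 (7.60) lowest of all.

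Atf4 itself was chosen after its values were seen. On all arrays its RNA measured 11.31 ± 0.01 in leukemia and 11.28 ± 0.08 in iPS cells (SD, n = 3). It measured 11.56 ± 0.34 in the GFP-positive and 11.47 ± 0.08 in the GFP-negative group, and no difference was called. Without the arrays that stood apart limma called Atf4 higher in GFP-positive colonies than in leukemia (0.45 ± 0.10, adjusted p = 0.00588). It was then also lower in iPS cells than in GFP-positive colonies (-0.48 ± 0.10, adjusted p = 0.00855). The GFP-negative difference from leukemia was not called there (0.19 ± 0.10, adjusted p = 0.181).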
